A study of Mus musculus with 8 samples.

Results

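Malat1, Neat1, Kcnq1ot1, Tug1 and Miat are long non-coding RNAs (lncRNAs) grouped here for their known roles in the nucleus, although Tug1 is also found in the cytoplasm. They were picked by gene symbol and make up 5 of the 24639 gene entries in each count list. Their reads were counted in mouse glomerular mesangial cells (MMC), the contractile, matrix-producing cells between the capillaries of the kidney glomerulus, in total RNA and in RNA recovered with beads against AGO2 (AGO2-IP), an Argonaute protein loaded with microRNAs. Both assays were run on wild-type (WT) and miR-379 knockout (miR-379KO, here KO) cells with 2 replicates each (A and B), which gives 4 groups. All groups were primary MMC on the C57BL/6J strain, grown without treatment in RPMI medium with foetal bovine serum. WT cells carried no engineered allele, and miR-379KO cells came from mice homozygous for a short deletion at miR-379, made in the zygote with CRISPR-Cas9 nickase and paired guide RNAs and present in every tissue. The cultures were started from pooled glomeruli and used after several passages, the study calls A and B independent samples, and the age of the mice is not given in the sources used here. P-values below therefore measure the spread between these 2 cultures per group and no more.

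As background, each of these RNAs is tied to a nuclear structure or to gene silencing. Malat1 lies in nuclear speckles, which hold pre-mRNA splicing factors, and Neat1 is the scaffold of paraspeckles, bodies built from the RNA-binding proteins Sfpq, Nono and Pspc1. The neighbouring Malat1 and Neat1 loci are both trimmed at the 3′-end by RNase P, which releases a small tRNA-like RNA and leaves Malat1 and the long form of Neat1 with a stabilised 3′-end in place of a poly(A) tail. Kcnq1ot1 is a very long transcript made from the paternal chromosome, antisense to Kcnq1, and silences genes of its imprinted domain in cis with the help of Polycomb and methylation enzymes. Tug1 is a spliced lncRNA found in nucleus and cytoplasm that was first described in retinal development and has been studied in podocytes, and Miat is a spliced lncRNA of neurons and heart that gathers in its own nuclear domains. Mature AGO2 complexes are best known from the cytoplasm, where the microRNA seed, bases 2 to 8 from its 5′-end, pairs with targets.

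In the RefSeq annotation of GRCm38.p6 all 5 genes are on the minus strand. Malat1 is at chr19:5795690-5802672 and has 1 exon of 6.98 kb. Neat1 is at chr19:5824708-5845480 and has 2 annotated forms of 1 exon each, a long one of 20.8 kb and a short one of 3.19 kb. Kcnq1ot1 is at chr7:143213111-143296547 and has 1 exon of 83.4 kb, so that only 1 of the 24349 entries with annotated exons is longer, and 29.1% of its bases are repeat-masked. Tug1 is at chr11:3639785-3648814 with up to 4 exons and 6.78 kb of exon, and Miat is at chr5:112213228-112228948 with up to 7 exons and 8.76 kb. The longest run of A in the Malat1 exon is shown because the total RNA libraries were selected for poly(A). It has 12 A (capitals) and lies 298 bases before the annotated 3′-end. The whole window shown is at chr19:5795982-5796011 on the minus strand of GRCm38.p6.
Malat1 A run: ttccctagctttAAAAAAAAAAAAgcaaaa
The longest run was 7 A in Neat1, 8 in Tug1, 4 in Miat and 41 in Kcnq1ot1, the last of these 13834 bases from the annotated 3′-end.

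The mature forms of the deleted microRNA, from RefSeq at chr12:109709065-109709085 (5p arm) and chr12:109709102-109709123 (3p arm) on the plus strand of GRCm38.p6, are shown with the seed in capitals.
mmu-miR-379-5p: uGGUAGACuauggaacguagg
mmu-miR-379-3p: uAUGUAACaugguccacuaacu
The exons of the 5 RNAs were searched on the RNA strand for the seed matches GTCTACC (5p arm) and GTTACAT (3p arm). Malat1, Tug1 and Miat held neither. Neat1 held 2 of each, shown with the match in capitals, all beyond the end of its short form.
Neat1 5p match 1, chr19:5841205-5841233: gcctgtgcgccGTCTACCtgcctccgtgt
Neat1 5p match 2, chr19:5825823-5825851: tgtacatgtgaGTCTACCatatgtaaatg
Neat1 3p match 1, chr19:5842267-5842295: ttgtcatggctGTTACATtctcgacctct
Neat1 3p match 2, chr19:5832660-5832688: atctagaacatGTTACATgtctgtccatg
Kcnq1ot1 held 4 matches to the 5p seed and 18 to the 3p seed, the most 3p matches of any entry. Of its 18, 12 lay within 2875 bases of the transcript, and 3 neighbours there are shown because each is followed by the same bases, gattat.
Kcnq1ot1 3p match 9, chr7:143241783-143241811: aacaacaagaaGTTACATgattatttcac
Kcnq1ot1 3p match 10, chr7:143241655-143241683: agcttaaagaaGTTACATgattatatctt
Kcnq1ot1 3p match 11, chr7:143241540-143241568: aaaaacaaaaaGTTACATgattatttcac
All of these windows are on the minus strand of GRCm38.p6. Longer entries held such matches more often, as GTCTACC was present in 11.1% of all 24349 entries and in 28.1% of the 2283 entries with at least 6 kb of exon, and GTTACAT in 10.5% and 30.9%. Per 10 kb of exon, Kcnq1ot1 held 0.479 matches of GTCTACC against 0.433 over all entries, and 2.16 of GTTACAT against 0.418. A seed match is a description of the sequence and was not tested as a binding site.

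**Figure D1:**
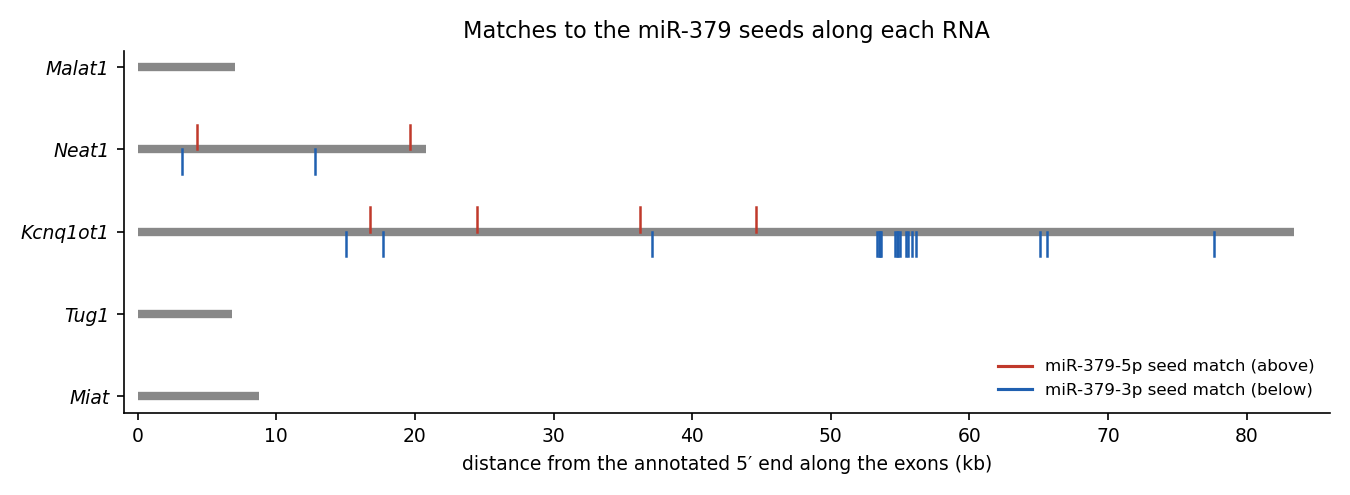
Positions of miR-379 seed matches along the exons of the 5 RNAs, drawn to scale from the annotated 5′-end (kb), with 5p matches above and 3p matches below each line. Only Neat1 and Kcnq1ot1 carry matches, and 12 of the 18 matches to the 3p seed in Kcnq1ot1 crowd into one stretch of the RNA.

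Total RNA libraries held 17168230 to 22660743 gene counts and AGO2-IP libraries 5587611 to 17095021, of which 1115782 to 1875037 fell outside the ribosomal RNA precursor Rn45s and Lars2. The share of reads in genes was 26.8 to 26.9% in WT AGO2-IP and 11.1 to 12.1% in KO AGO2-IP. Over 4839 autosomal protein-coding genes without a read in any total RNA library, used here as the background of AGO2-IP, there were 0.939 and 1.4 counts per kb of exon in WT and 3.17 and 3.61 in KO, so the genotypes differed in background as well. The Mir379 entry was at 0 in every total RNA library and at no more than 4 counts in AGO2-IP, and gave no check of the deletion. In total RNA, 8 of 10 mesangial and pericyte markers had at least 10 counts in every library, and the summed counts-per-million (CPM, scaled by TMM) of the list were 36900 to 42100. The sums were 240 to 628 CPM for 5 podocyte markers, 2.62 to 47 for 5 tubular markers, with Slc34a1 and Umod at 0, 0.0587 to 2.09 for 5 endothelial and 1.79 to 5.09 for 5 leukocyte markers.

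Malat1 was the most abundant of the 5 RNAs in every library and Miat was at the limit of detection. Levels are given as CPM on 1 scale for all 8 libraries and, to compare genes, per kb of exon. In total RNA the order was Malat1 (34.1 ± 15.9 CPM per kb in WT and 29.5 ± 0.6 in KO, mean ± SD, n = 2), Tug1 (8.16 ± 2.73 and 7.63 ± 1.27), Neat1 (0.807 ± 0.545 and 0.472 ± 0.132), Kcnq1ot1 (0.105 ± 0.0389 and 0.0956 ± 0.0119) and Miat (1 count in WT A and 0 in the other 3 libraries). No library of a higher RNA overlapped the libraries of the next one in this order. With the 3.19 kb form as its length, Neat1 was at 5.26 CPM per kb in WT and 3.08 in KO. Its WT range of 2.75 to 7.78 then overlapped that of Tug1, but it stayed below Tug1 in each of the 4 libraries. In AGO2-IP the order changed, with Malat1 at 1340 ± 97.3 and 855 ± 37.1 CPM per kb, Neat1 second at 98.7 ± 31.9 and 63.1 ± 13.7, Tug1 at 9.33 ± 0.39 and 8.42 ± 0.457, Kcnq1ot1 at 2.03 ± 0.56 and 2.92 ± 0.455 and Miat at 0.187 ± 0.0376 and 0.531 ± 0.0432. Again no libraries of neighbouring RNAs overlapped. Malat1 and the long form of Neat1 lack a poly(A) tail, for which the total RNA libraries were selected, so these orders describe the libraries only. In these bulk libraries, fewer cells that express an RNA and less of it per cell cannot be told apart.

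**Figure D2:**
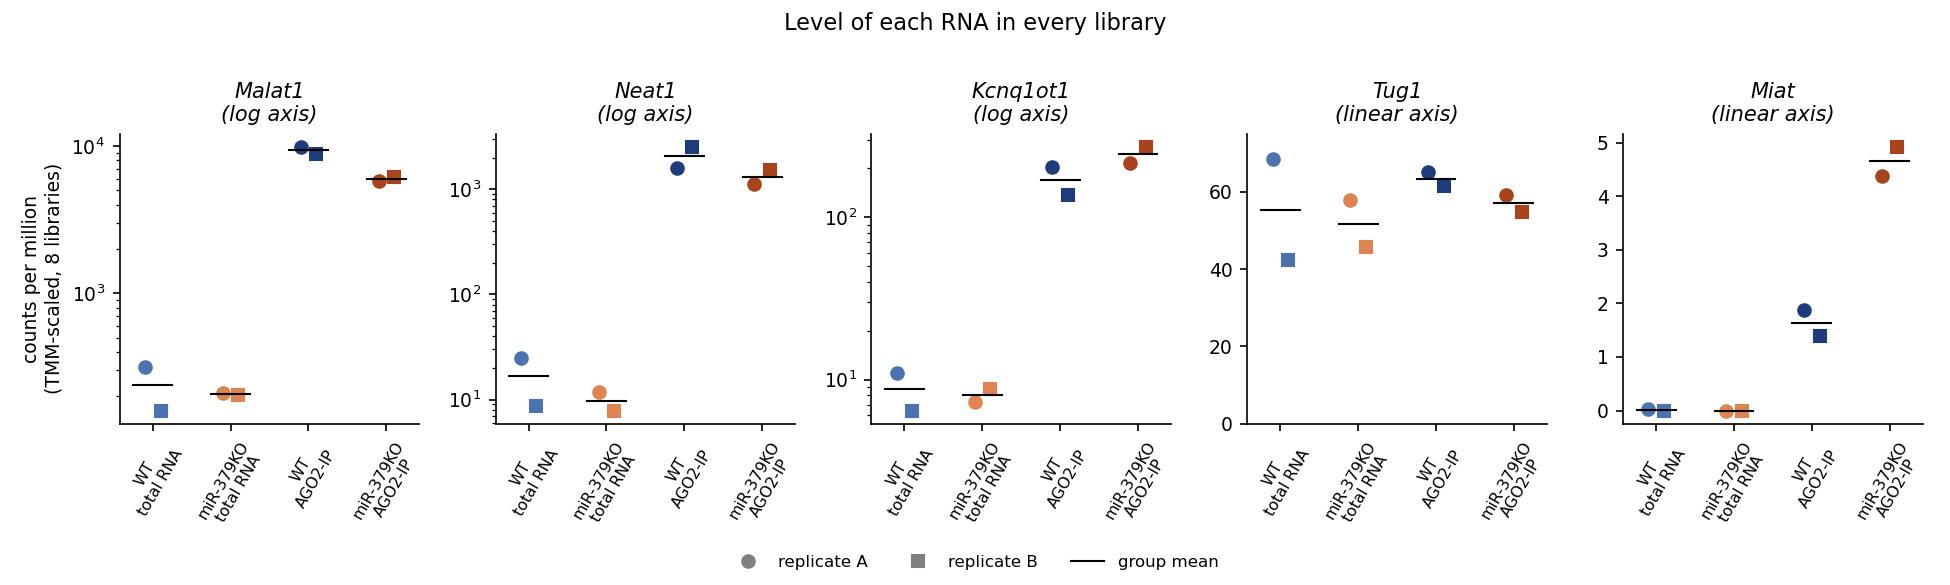
CPM of each RNA (TMM-scaled over all 8 libraries) in replicate A (circles) and B (squares) of each group, with the group mean as a bar, on a log axis for Malat1, Neat1 and Kcnq1ot1 and a linear axis for Tug1 and Miat. For Malat1, Neat1 and Kcnq1ot1 every AGO2-IP library lies above every total RNA library, and for Tug1 the assays overlap.

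The first comparison asked which of the 5 RNAs were recovered with AGO2 beyond their level in total RNA. In both genotypes Malat1, Neat1 and Kcnq1ot1 stood far above total RNA and Tug1 did not. With an edgeR quasi-likelihood test, a Benjamini-Hochberg adjusted p under 0.05 and at least a 2-fold difference, these 3 of the 4 RNAs detected in total RNA were called higher in WT (35.7% of 17429 genes tested were called higher and 7.33% lower) and in KO (41.6% higher and 19.3% lower). The median log2 difference of the 4 was 4.79 in WT and 4.90 in KO, against 0.49 and 0.47 over all genes tested. Miat was called too but passed the filter on low counts only through the KO AGO2-IP libraries, where it was highest, so it is described apart and not counted. With Miat set at the limit given below, the medians of all 5 were 4.48 and 4.93. Genes of few total RNA reads weighed on those shares. Among the 9906 genes that averaged 100 counts or more in total RNA, 6.76% were called higher in WT and 6.96% in KO. By size of the difference among these, Neat1 stood at rank 3 in WT and 2 in KO, Malat1 at 5 and 11, Kcnq1ot1 at 6 and 8, and Tug1 at 3091 and 2419.

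Malat1 counts were 13350 and 6367 in WT total RNA, 10502 and 7896 in KO total RNA, 42084 and 31620 in WT AGO2-IP and 22437 and 22514 in KO AGO2-IP. On the CPM scale of all 8 libraries these were 317, 160, 209 and 203 in total RNA and 9820, 8860, 5780 and 6150 in AGO2-IP. All AGO2-IP libraries exceeded all total RNA libraries, by a log2 difference of 5.29 ± 0.44 (SE; 39.2-fold; edgeR, adjusted p = 1.33e-07) in WT and 4.86 ± 0.43 (29-fold; adjusted p = 1.45e-07) in KO. By count, Malat1 ranked 5 or 6 of all genes in each AGO2-IP library and 120 to 412 in total RNA. Outside Rn45s and Lars2 it took 2.11% ± 0.195 of WT and 1.87% ± 0.214 of KO AGO2-IP counts (SD, n = 2), compared to 0.0622% ± 0.0337 and 0.0486% ± 0.000884 of total RNA counts.

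Neat1 showed the largest difference of the 4 RNAs detected in total RNA. Its counts were 1044 and 349 in WT total RNA, 591 and 306 in KO total RNA, 6772 and 8986 in WT AGO2-IP and 4309 and 5536 in KO AGO2-IP. On the 8-library scale it rose from 24.8, 8.75, 11.7 and 7.86 CPM to 1580, 2520, 1110 and 1510 CPM, with no overlap. The log2 difference was 6.93 ± 0.56 (122-fold; edgeR, adjusted p = 3.17e-07) in WT and 7.06 ± 0.56 (134-fold; adjusted p = 1.37e-07) in KO. Per 100 reads of Malat1, its neighbour, there were 3.88 to 7.82 reads of Neat1 in the 4 total RNA libraries and 16.1 to 28.4 in the 4 AGO2-IP libraries, a ratio that does not depend on scaling. The total RNA libraries were poly(A)-selected, whereas the study describes the AGO2-IP libraries as small RNA-seq, so recovery with AGO2 and the lack of a poly(A) tail on Malat1 and the long form of Neat1 cannot be told apart. For every gene, Kcnq1ot1 and Tug1 included, assay and library protocol changed together, so their parts in any difference from total RNA cannot be told apart either.

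Kcnq1ot1 counts were 465 and 257 in WT total RNA, 366 and 338 in KO total RNA, 868 and 487 in WT AGO2-IP and 842 and 991 in KO AGO2-IP. As CPM over 8 libraries these were 11, 6.44, 7.27 and 8.68 in total RNA and 203, 137, 217 and 271 in AGO2-IP, again without overlap. The log2 difference was 4.28 ± 0.34 (19.4-fold; edgeR, adjusted p = 9.03e-08) in WT and 4.93 ± 0.35 (30.6-fold; adjusted p = 1.23e-08) in KO. This direction held in each alternative fit except those with a sequence offset (for GC content and the length of the exons), where it turned to −0.51 ± 0.28 (adjusted p = 0.123) in WT and −1.27 ± 0.28 (adjusted p = 0.000418) in KO. The offset rests on a smooth curve over exon length, and only 1 entry is longer than Kcnq1ot1, so the curve has almost no other gene at that length. Kcnq1ot1 is antisense to Kcnq1, and the counting used strand. No total RNA library held a read of Kcnq1 itself, and the AGO2-IP libraries held 1, 0, 6 and 5.

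Tug1 was the exception. Its counts were 2886 and 1686 in WT total RNA, 2910 and 1776 in KO total RNA, 279 and 219 in WT AGO2-IP and 230 and 201 in KO AGO2-IP. As CPM over 8 libraries these were 68.5, 42.3, 57.8 and 45.6 in total RNA and 65.1, 61.4, 59.3 and 54.9 in AGO2-IP, and the ranges overlapped in both genotypes. The log2 difference was 0.19 ± 0.27 (95% interval −0.37 to 0.76; edgeR, adjusted p = 0.571) in WT and 0.14 ± 0.27 (−0.42 to 0.71; adjusted p = 0.649) in KO. Both values lay below the median of all genes tested. They lay above the median of the 9906 genes that averaged 100 counts or more in total RNA (−0.19 in WT and −0.60 in KO). With the sequence offset it was −1.92 ± 0.25 (adjusted p = 7.34e-06) and −2.98 ± 0.26 (adjusted p = 1.93e-08), so the call for Tug1 rests on that choice. Its count per 100 reads of Malat1 was 21.6 to 27.7 in total RNA and 0.663 to 1.03 in AGO2-IP, which gives the gap between these 2 RNAs of like exon length (6.78 and 6.98 kb) without any scaling.

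Miat was counted 1 and 0 times in WT total RNA, 0 and 0 in KO total RNA, 8 and 5 in WT AGO2-IP and 17 and 18 in KO AGO2-IP. Set against a floor of 3 counts per total RNA library, which covers counting error only, its mean AGO2-IP level of 1.63 CPM in WT was at least 22.3-fold higher and its 4.65 CPM in KO at least 68.1-fold higher. These folds are a description with no test, since its reads did not exceed the background of the libraries, as the next values show.

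**Figure D3:**
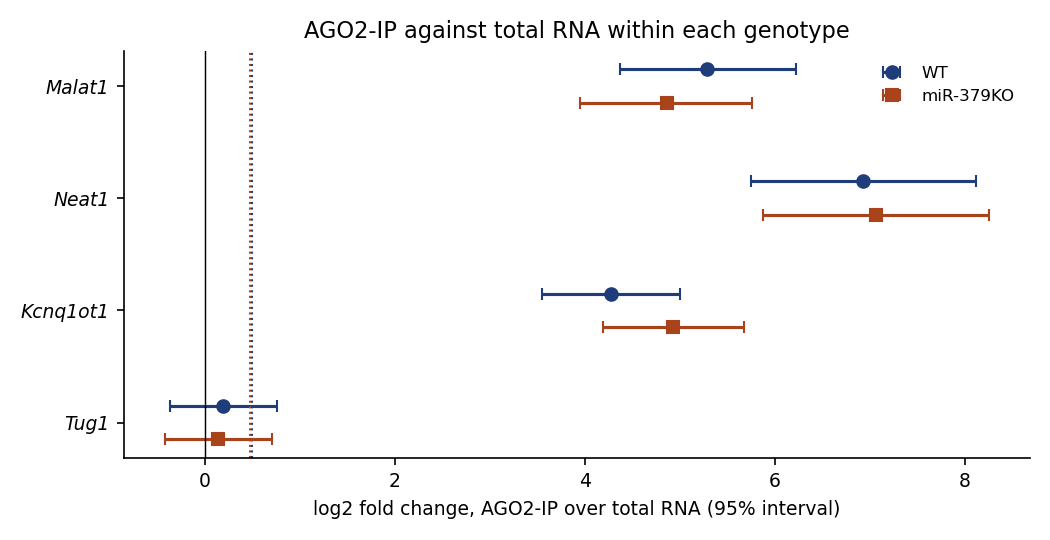
Log2 difference of AGO2-IP over total RNA for the 4 RNAs detected in total RNA, in WT (circles) and KO (squares), with 95% intervals of the edgeR fit. The dotted lines mark the median of all 17429 genes tested in each genotype (0.49 and 0.47), the 3 RNAs at the top lie at 4.28 to 7.06, and both Tug1 intervals include 0. Among genes that averaged 100 counts or more in total RNA, the medians were −0.19 in WT and −0.60 in KO.

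The AGO2-IP counts per kb of exon were set beside those of the 4839 genes without total RNA reads. Malat1 was 4320 and 4820 times that background in WT and 1010 and 894 times in KO. Neat1 was 234 and 461 times background in WT and 65.5 and 73.9 times in KO, and Tug1 29.5, 34.4, 10.7 and 8.22 times. Kcnq1ot1, spread over 83.4 kb, was only 7.46 and 6.22 times background in WT and 3.19 and 3.29 times in KO, so that background of that density would give 13.4 and 16.1% of its counts in WT and 31.4 and 30.4% in KO. Miat stayed below background in every library, at 0.655, 0.608, 0.613 and 0.57 times. At the background density 12.2, 8.22, 27.7 and 31.6 counts of Miat would be seen, against 8, 5, 17 and 18 counted (exact Poisson 95% intervals 3.45 to 15.8, 1.62 to 11.7, 9.9 to 27.2 and 10.7 to 28.4, for counting error only). After this background was subtracted from every gene, Malat1 (5.41 in WT and 5.80 in KO), Neat1 (7.04 and 8.01) and Kcnq1ot1 (4.18 and 5.35) kept their log2 difference from total RNA, and Miat had no count left to test. In KO, Tug1 moved from 0.14 to 0.92, its highest value there among the alternatives and still under the 2-fold minimum.

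**Figure D4:**
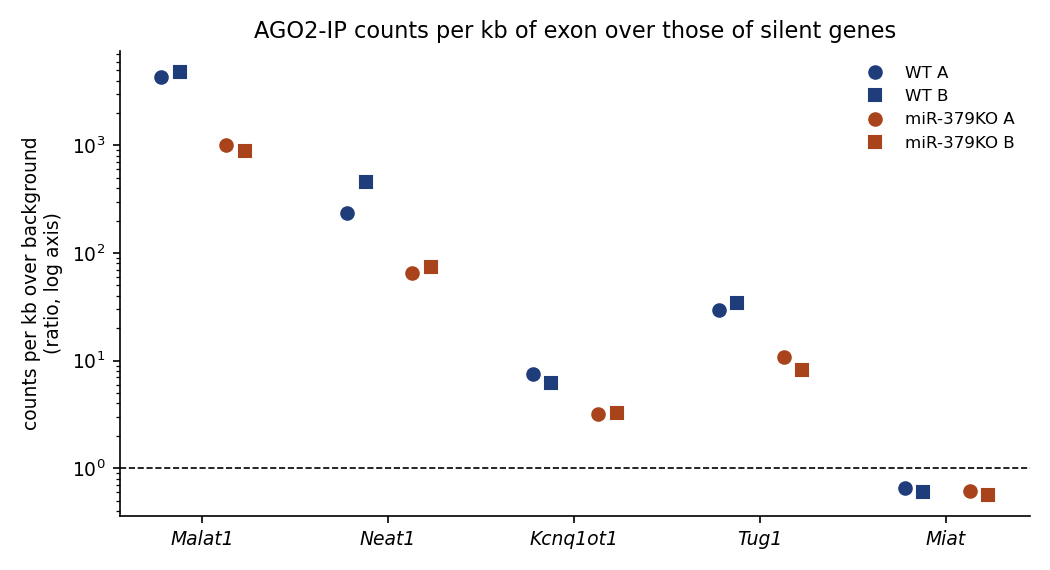
AGO2-IP counts per kb of exon divided by the counts per kb of 4839 protein-coding genes without total RNA reads in the same library (log axis), for WT (blue) and KO (brown) replicates A (circles) and B (squares), with the dashed line at 1. All RNAs but Miat lie above the line, and the 4 RNAs above it lie lower in KO, where the background itself was higher.

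The deletion of miR-379 was then compared with WT within total RNA. None of the 4 RNAs tested was called (0% of 12321 genes were called, and 0.682% passed the study's own cutoff of a 1.5-fold change with an unadjusted p under 0.05, which none of the 4 passed). edgeR called 0 genes, with 91 at an unadjusted p under 0.05, and DESeq2 called 0 of 16879, with 110 at an unadjusted p under 0.05. The median log2 difference of the 4 RNAs was −0.27, against −0.01 over all genes. In CPM scaled over the 4 total RNA libraries, Malat1 was at 796 and 348 in WT and 457 and 464 in KO, with the KO replicates between the WT ones. Neat1 was at 62.3 and 19.1 CPM in WT and 25.7 and 18 in KO, which also overlapped. Kcnq1ot1 was at 27.7 and 14.1 CPM in WT and 15.9 and 19.9 in KO, and Tug1 at 172 and 92.3 against 127 and 104, so all 4 overlapped. The log2 difference was −0.31 ± 0.41 (95% interval −1.30 to 0.67) for Malat1, −0.90 ± 0.54 (−2.21 to 0.42) for Neat1, −0.23 ± 0.36 (−1.10 to 0.65) for Kcnq1ot1 and −0.20 ± 0.33 (−0.99 to 0.60) for Tug1, each with an adjusted p of 1 in edgeR. These intervals are wide enough to hold a 2-fold loss for Malat1, Neat1 and Kcnq1ot1, and Miat was too rare to be tested.

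In total RNA the WT replicates differed from each other more than the genotypes did. WT A exceeded WT B by 2.29-fold for Malat1, 3.26-fold for Neat1, 1.97-fold for Kcnq1ot1 and 1.87-fold for Tug1, in the same direction for all 4. Of 9835 genes that averaged 100 counts or more in these 2 libraries, only 2.32% had a larger excess of A than Malat1, 0.671% than Neat1, 4.97% than Kcnq1ot1 and 6.24% than Tug1. In KO the A to B ratios were 0.985, 1.43, 0.802 and 1.21. The share of uniquely placed reads that lay outside genes was 8.81% in WT A and 6.41 to 6.78% in the other total RNA libraries, and its part in the gap was not tested. Without WT A, the log2 differences of KO from WT were 0.41 for Malat1, 0.20 for Neat1, 0.35 for Kcnq1ot1 and 0.33 for Tug1, and without WT B they were −0.79, −1.51, −0.63 and −0.58, so the sign of all 4 rested on which WT culture was kept, with an adjusted p of 0.360 or above in each.

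Within AGO2-IP the genotypes differed for many genes (21.4% of 13505 genes were called higher in KO and 9.52% lower, and 39.4% passed the study's cutoff), and 0 of the 4 abundant RNAs were called by edgeR. Kcnq1ot1 alone of these passed the study's cutoff. The median log2 difference of the RNAs, Miat included, was −0.00, against −0.01 over all genes. It is not read as a result, since Miat passed the filter only through KO. The 4 abundant RNAs lay at −0.50, −0.49, 0.67 and −0.00, and the median of genes that averaged 100 counts or more in total RNA was −0.25. Malat1 was at 4130 and 3660 CPM (scaled over the 4 AGO2-IP libraries) in WT and 2630 and 2880 in KO, lower in both KO libraries, with a log2 difference of −0.50 ± 0.36 (95% interval −1.23 to 0.24; edgeR, adjusted p = 0.294). Neat1 was at 664 and 1040 CPM in WT and 506 and 707 in KO, which overlapped, with a difference of −0.49 ± 0.34 (−1.18 to 0.21; adjusted p = 0.276). DESeq2 called both lower (−0.77, adjusted p = 0.00913, and −0.79, adjusted p = 0.0333) on a scale where the median of all genes was 0.31. After subtraction of the background they were at 0.05 and 0.06 (edgeR, adjusted p = 0.954 and 0.939), and with the sequence offset Malat1 was called lower (−0.98, adjusted p = 0.0384). With RLE factors or either other choice of TMM factors both stayed uncalled (adjusted p = 0.236 to 0.628).

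Kcnq1ot1 was the only one of the 4 abundant RNAs that was higher in both KO AGO2-IP libraries, at 98.8 and 127 CPM, than in both WT libraries, at 85.1 and 56.3 CPM. The log2 difference was 0.67 ± 0.28 (1.59-fold; 95% interval 0.10 to 1.24; edgeR, adjusted p = 0.0671). Scaled on genes that averaged 100 counts or more in total RNA it was 0.92 (adjusted p = 0.0109, with the median of all genes at 0.23), with the background subtracted 0.91 (adjusted p = 0.0778), and with the sequence offset −0.48 (adjusted p = 0.172). Without WT B the difference was 0.36 (adjusted p = 0.542) and without KO B 0.47 (adjusted p = 0.367), and over all alternatives the adjusted p ran from 0.0109 to 0.542. Per 100 reads of Malat1 there were 2.06 and 1.54 reads of Kcnq1ot1 in WT and 3.75 and 4.4 in KO AGO2-IP, and 3.48 to 4.28 in the total RNA libraries of both genotypes.

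Tug1 overlapped between genotypes, at 27.4 and 25.3 CPM in WT and 27 and 25.7 in KO AGO2-IP, with a log2 difference of −0.00 ± 0.22 (95% interval −0.46 to 0.46; edgeR, adjusted p = 0.998). Only with the sequence offset was it called lower (−0.95, adjusted p = 0.00413). Miat was at 0.784 and 0.578 CPM in WT and 1.99 and 2.3 in KO AGO2-IP, a log2 difference of 1.62 ± 0.47 (3.07-fold). It passed the filter on low counts only through the KO libraries, so the filter itself favoured a higher KO level, and the edgeR call on it (adjusted p = 0.0125) is not read as a result. The background moved alongside, as its density was 1.76 higher on the log2 scale in KO. With no filter the difference was 1.41 (adjusted p = 0.0260), and with all 8 libraries in 1 fit it was 1.49 (adjusted p = 0.123). Without WT B or either knockout library it was 1.39 to 1.65, about as large but on 3 libraries no longer called (adjusted p = 0.0661 to 0.179), and DESeq2 gave Miat no adjusted p.

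**Figure D5:**
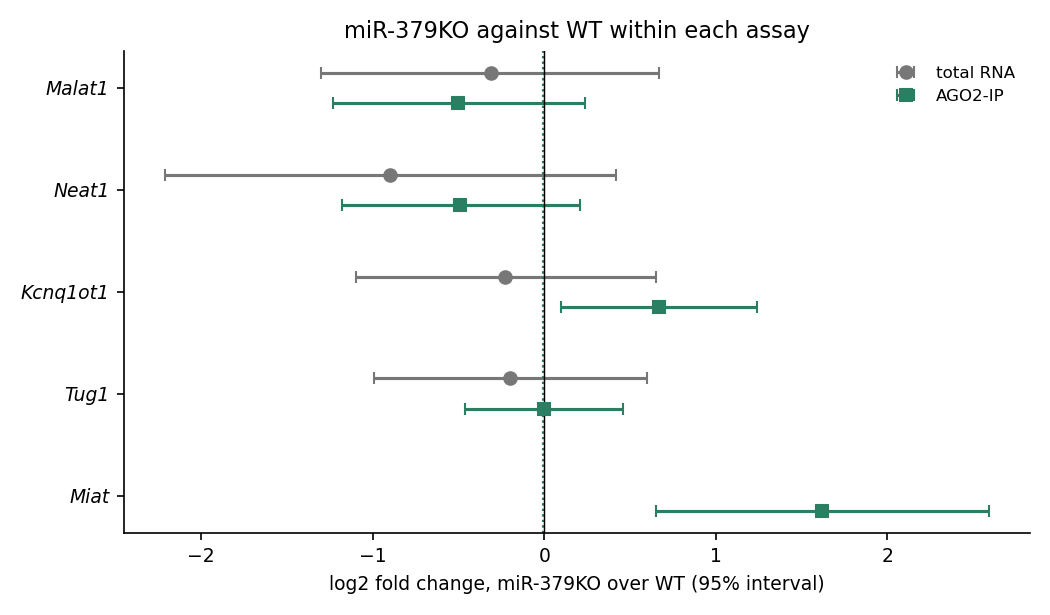
Log2 difference of KO over WT for each RNA in total RNA (grey circles) and AGO2-IP (green squares), with 95% intervals of the edgeR fits and the medians of all genes as dotted lines, which lie next to 0. Only the AGO2-IP intervals of Kcnq1ot1 (0.10 to 1.24) and Miat (0.65 to 2.59) leave out 0. Miat entered the AGO2-IP fit only through the KO libraries and was not tested in total RNA.

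An interaction term, fitted to the 8 libraries together, asked whether the AGO2-IP change exceeded the total RNA change, and none of the 5 RNAs was called (0% of 17429 genes). edgeR called 0 genes, with 2733 at an unadjusted p under 0.05, and DESeq2 called 211. The differences were −0.44 ± 0.52 for Malat1 (adjusted p = 0.748), 0.13 ± 0.61 for Neat1 (1), 0.66 ± 0.43 for Kcnq1ot1 (0.463), −0.05 ± 0.38 for Tug1 (1) and 3.20 ± 1.82 for Miat (0.397), with a median of 0.13, Miat included, against 0.01 over all genes. Miat passed the filter only through the KO AGO2-IP libraries, so this median of 0.13 is not read as a result. The 95% intervals ran from −0.25 to 1.56 for Kcnq1ot1, −0.85 to 0.75 for Tug1, −1.53 to 0.66 for Malat1 and −1.17 to 1.43 for Neat1. The sign for Tug1 turned under 11 of 19 alternatives.

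The mRNAs of the proteins that build the bodies of Malat1 and Neat1 were set against other expressed genes. Among 9906 expressed genes (a mean of 100 total RNA counts or more), AGO2-IP exceeded total RNA by the test in 6.76% and fell below it in 12.8% in WT (median log2 difference −0.19), and in 6.96% and 33.9% in KO (−0.60). Of 31 paraspeckle protein mRNAs, 0 were called higher than total RNA in WT and 4 lower (median log2 difference −0.15), and 0 higher and 10 lower in KO (−0.85), which is 12.9% and 32.3% of the list. Nono was at 34.2 CPM in WT and 28 in KO AGO2-IP and was lower than total RNA in both (−1.10 ± 0.28, adjusted p = 0.00332, and −1.67 ± 0.28, adjusted p = 5.14e-05, edgeR), whereas Sfpq (−0.06 ± 0.25 and −0.64 ± 0.25) and Pspc1 (0.33 ± 0.26 and 0.04 ± 0.26) were not called. Rbm3, a cold-induced RNA-binding protein, was furthest below total RNA in both genotypes (−1.82 and −2.48) among those that averaged 50 counts or more, with Nudt21, a 3′-end cleavage factor, next in WT (−1.20) and Hnrnpk next in KO (−2.10). Of 27 nuclear speckle protein mRNAs, 1 was higher and 1 lower in WT (median −0.12) and 1 higher and 13 lower in KO (−0.94). In KO these became 3 and 3 after background subtraction (−0.25), 2 and 5 with a minimum mean of 50 counts and 2 and 4 with scaling on genes with total RNA counts. Of all genes, 2568 were higher and 1987 lower of 13450 after subtraction, and 1689 and 1691 of 10198 with that minimum. With that scaling they numbered 8475 and 1590 of 17429. In the reported fits the higher speckle mRNA was Cdk12, a kinase of transcription elongation (1.08 and 1.06). Furthest below by the same measure were U2af1 in WT (−1.16) and Ddx39b (−1.89) and Srsf3 (−1.83) in KO, all splicing or export factors.

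Between genotypes, 0 mRNAs of either list were called in total RNA. In AGO2-IP, 7 paraspeckle mRNAs were lower in KO and 0 higher (median −0.37), led by Taf15 (−0.91 ± 0.25, adjusted p = 0.00896) and Dazap1 (−0.80 ± 0.25, adjusted p = 0.0183). Of the nuclear speckle mRNAs, 12 were lower and 0 higher (−0.60), led by the splicing factors Srrm1 (−0.94 ± 0.22, adjusted p = 0.00323) and Snrnp70 (−0.87 ± 0.23, adjusted p = 0.00652). Sfpq was at −0.57 ± 0.23 (adjusted p = 0.0658), Nono at −0.29 ± 0.23 and Pspc1 at −0.17 ± 0.28. Among 9611 genes that averaged 100 counts or more in total RNA, 13.2% were called lower and 2.97% higher, with a median of −0.25. After background subtraction, or with a minimum mean of 50 counts, 0 mRNAs of either list were called between genotypes. Of all genes tested, 611 of 9829 and 274 of 4971 were called there. With scaling on genes with total RNA counts 1 paraspeckle and 3 speckle mRNAs were lower, where 404 of all 13505 genes were. DESeq2 called 11 and 12 lower, where it called 1314 of all 23572 genes lower.

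Of 13 genes of the Kcnq1 imprinted domain, 8 were tested in total RNA and none was called. The cell cycle inhibitor Cdkn1c, a known silencing target of Kcnq1ot1, was counted 16 and 58 times in WT and 32 and 20 times in KO (log2 difference −0.68 ± 0.66), and the transporter Slc22a18 had 9 and 20 against 20 and 9 (−0.21 ± 0.65). Differences in total RNA were 0.02 to 0.24 for Cd81, Tssc4, Nap1l4, Osbpl5 and Tnfrsf22 and −0.02 for Tnfrsf23. Tnfrsf22 and Tnfrsf23 are decoy receptors of the TNF family. In AGO2-IP, 1 of 7 tested was higher in KO and 4 were lower (median −0.70), where 21.4% and 9.52% of all genes tested and 2.97% and 13.2% of expressed genes were. The higher one was Tnfrsf22 with 238 and 151 counts in WT and 316 and 361 in KO (1.02 ± 0.24, edgeR, adjusted p = 0.00327), and the lower ones were Tnfrsf23 (−0.83 ± 0.27), the tetraspanin Cd81 (−0.79 ± 0.28), Nap1l4 (−0.70 ± 0.25) and Tssc4 (−0.95 ± 0.36). Osbpl5 (−0.48 ± 0.23) and the channel gene Trpm5 (0.68 ± 0.56, with 0 counts in total RNA) were not called. With scaling on genes with total RNA counts, and after background subtraction, 1 gene of the list was higher and 0 were lower. Of all genes, 3570 were higher and 404 lower of 13505 with that scaling, and 526 and 85 of 9829 after subtraction. Tnfrsf22 was also higher in AGO2-IP than in total RNA in both genotypes (2.58 ± 0.26 and 3.25 ± 0.26), and Nap1l4 was lower (−1.04 ± 0.27 and −2.10 ± 0.28).

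Of 24 Polycomb and methylation enzyme mRNAs, the enzymes that Kcnq1ot1 is known to recruit among them, 0 were called between genotypes in total RNA and 1 of 22, the chromatin assembly protein Rbbp4, was lower in KO AGO2-IP (−0.62 ± 0.23, edgeR, adjusted p = 0.0406), against 13.2% of expressed genes. With scaling on genes with total RNA counts 3 were higher and 0 lower, where 3570 of all 13505 genes tested were higher and 404 lower. Rbbp4 was also lower in AGO2-IP than in total RNA (−1.43 in WT and −2.43 in KO), as was Rbbp7 in KO (−1.62), and the Polycomb partner Mtf2 was higher in both (1.09 and 1.57) and Jarid2 in KO (1.06). Of 12 RNase P and RNase Z protein mRNAs, which process the 3′-ends of Malat1 and Neat1, 10 were tested in total RNA and 5 in AGO2-IP, and 0 were called between genotypes. In AGO2-IP against total RNA, 1 of 10 was lower in WT, the RNase P subunit Pop4 (−1.24), and 3 of 10 in KO, among them Pop4 (−2.10) and Rpp25l (−2.05), close to the 12.8% and 33.9% of expressed genes.

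Genes with the most similar pattern over the 8 libraries were found by Pearson correlation of log2 CPM among 4855 genes that averaged 50 counts or more in each assay (4856 for Miat, which did not itself reach that mean). As the libraries fall into 2 assays that share their protocol within each, r is given as a description over 8 libraries, with no test. Malat1 was most like Vps13b, Lars2 and Rn45s (r = 0.997 each). Neat1 was most like Herc1 (0.999), Malat1 (0.996) and Vps13b (0.995). Kcnq1ot1 was most like Dgkh (0.997), A130077B15Rik (0.995) and Mrgpra6 (0.994). Tug1, whose assays overlapped, reached at most 0.974 with Hipk3, then Mdga1 (0.960) and Rnf150 (0.958). Miat was most like Ccdc82 (0.999), Intu (0.998) and A130077B15Rik (0.998).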

How the data were processed

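The deposited files are lists of gene counts, whole numbers of reads that the authors obtained without normalization. By the study's account, poly(A)-selected, strand-marking libraries were prepared from total RNA, whereas RNA pulled down with AGO2 from UV cross-linked, sonicated cells, without the step that joins microRNAs to targets, was sequenced as small RNA-seq. The submitters' processing notes name TopHat, Bowtie2 2.1.0.1 and HTSeq 0.6.0 on mm10, with RefSeq genes, and reads were counted by strand and only where uniquely placed. Entries that name no gene were left out of library sizes and tests. Genes held 76.2 to 80.2% of listed reads in total RNA and 11.1 to 26.9% in AGO2-IP, and of uniquely placed reads 6.41 to 8.81% and 46.6 to 76.4% lay outside genes. The release of RefSeq counted, and so the Neat1 form, is not given in the sources used here.

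Samples were grouped by their titles. Genes were tested in edgeR 4.0.16 (R 4.3.3) with TMM factors, filterByExpr (minimum count 10), robust dispersions and the two-sided quasi-likelihood F test, Benjamini-Hochberg adjusted over all genes tested. Genotypes were compared within the 4 libraries of an assay, assays and the interaction over all 8 libraries, with a 2-fold minimum for assays. Standard errors are the log2 difference over the square root of F, and intervals use the t quantiles of the fit. The fits were tested on simulated counts. Exon lengths, sites and coordinates (1-based) come from RefSeq on GRCm38.p6, which matched 24349 of 24639 entries (98.8%). Strand was looked at in 44 overlapping pairs with a sense mean of at least 1000 counts and a partner of at most 12 summed counts. The sense entry was higher in all 44 in every library, an order that this choice of pairs largely fixed. The antisense share of their counts was 0.0463 to 0.0639% in total RNA, 1.21 and 1.8% in WT AGO2-IP and 5.17 and 7.64% in KO AGO2-IP. Replicates differed beyond sampling noise in all groups (chi-square per degree of freedom 3.51 to 119).

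The members and gene lists were chosen with earlier results of these data known. Named genes were the 5 RNAs, Sfpq, Nono and Pspc1, the tested genes of the Kcnq1 domain, for each list and comparison up to 2 called genes per direction with the largest change among those that averaged 50 counts or more without overlap of groups, and the 3 genes most like each RNA (log2 CPM with a prior count of 2). Alternatives were DESeq2 1.42.0, RLE factors, TMM factors computed after removal of the top 20 genes or on genes averaging 100 or more total RNA counts, no filter, a minimum mean of 50 counts, a sequence offset (lowess on GC content and log exon length, span 0.3), the replicate letter as a block, all 8 libraries in one fit, subtraction of the background per kb, omission of each library and the longest transcript as length. The shortest transcript as length was added after the data were seen.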

Additional observations from a re-analysis of the deposited data

How the results depend on the processing

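Of 367 values of the 5 RNAs under alternatives, 44 changed sign, some of them with a change of call as well. Among the rest 312 kept their call, 4 lost and 7 gained one. Tug1 in KO against WT AGO2-IP, at −0.00, had no sign to change and is among the rest. Malat1 and Neat1 stayed higher in AGO2-IP than in total RNA under every alternative run (3.55 to 5.83 and 5.59 to 8.01). The cause of the changes below was not tested.

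In KO against WT AGO2-IP, where 1 RNA (Miat, which passed the filter only through KO) was called, DESeq2 called 2, scaling on genes with total RNA counts 2, the sequence offset 3, the offset with the replicate block 2, all 8 libraries in 1 fit 0, background subtraction 0 (Miat had no count left) and omission of a library 0 to 1. Kcnq1ot1 there turned to −0.48 with the offset and −0.47 with offset and block, was called with a minimum mean of 50 counts (1.05, adjusted p = 0.0445), and background subtraction turned Malat1 to 0.05 and Neat1 to 0.06. In total RNA, Kcnq1ot1 turned to 0.26 and Tug1 to 0.12 with the offset, and Malat1 to 0.02, Kcnq1ot1 to 0.28 and Tug1 to 0.12 with offset and block. Omission of a library gave −0.79 to 0.41 for Malat1, −1.51 to 0.20 for Neat1, −0.63 to 0.35 for Kcnq1ot1 and −0.58 to 0.33 for Tug1.

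In the interaction, Tug1 turned to 0.23 with DESeq2 and with RLE factors, 0.40 with scaling on genes with total RNA counts, 0.38 with a minimum mean of 50 counts and 0.65 after background subtraction, and ran from −0.45 to 0.26 when a library was omitted. Malat1 turned to 0.02 with scaling on genes with total RNA counts and 0.39 after background subtraction. With the offset, and with offset and block, Neat1 turned to −0.30 in both and Kcnq1ot1 to −0.76 and −0.77, and Neat1 ran from −0.83 to 0.81 when a library was omitted. In AGO2-IP against total RNA, the offset and the offset with block gave −0.51 and −0.50 for Kcnq1ot1 and −1.92 and −1.94 for Tug1 in WT, and −1.27 and −1.27, −2.98 and −2.96 in KO. Omission of a library gave −0.14 to 0.54 for Tug1 in WT and −0.08 to 0.27 in KO.

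Letters A and B are shared by all groups. Deviations from the group means of like-lettered libraries correlated at −0.03 between genotypes in total RNA, 0.02 in AGO2-IP, and 0.22 (WT) and 0.18 (KO) between assays of a genotype (10198 genes). Across genotype and assay they correlated at 0.17 (KO total RNA with WT AGO2-IP) and −0.03 (WT total RNA with KO AGO2-IP). The labels do not say that a letter marks a shared culture, and 2 letters are too few to settle it, so the letter was not used in the reported fits. With the replicate block the RNAs called numbered 0, 1, 0, 4 and 4, Miat included, as without it (Miat 1.62, adjusted p = 0.0208; Kcnq1ot1 0.69, adjusted p = 0.120).

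Genes called in AGO2-IP between genotypes numbered 4173 (2887 higher), against 1399 with DESeq2 (85 higher), 274 with a minimum mean of 50 counts, 686 with all 8 libraries in 1 fit, 611 after background subtraction, 2351 without WT B and 918 without KO B, and 3570 of 3974 were higher with scaling on genes with total RNA counts. In AGO2-IP against total RNA 7507 (WT) and 10627 (KO) fell to 1829 and 3380 with a minimum mean of 50 counts and to 2557 and 4555 after background subtraction. The interaction's 0 became 211 with DESeq2, 472 with offset and block, 1108 with a block per culture and 1547 without WT total RNA B. Miat, at 18 counts or fewer, lay below background in every AGO2-IP library.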

Other observations

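Beyond the 5 RNAs, 43 other named lncRNAs had an entry, and 24 of them were called higher in AGO2-IP than in total RNA in WT and 0 lower (median log2 difference 1.30, against 0.49 over all genes), and 24 higher and 2 lower in KO (1.44 against 0.47). Of all genes tested 35.7% were higher in WT and 41.6% in KO. Some of the 43, among them Hottip and Tsix with 0 counts in every total RNA library, passed the filter on low counts only through AGO2-IP. The filter itself favoured a higher call for those. After background subtraction 1572 of all 13450 genes were higher in WT and 2568 in KO, and 14 and 16 of 35 lncRNAs were. With a minimum mean of 50 counts 971 and 1689 of all 10198 genes were higher, and 8 and 6 of 21 lncRNAs. Among those with enough counts, Meg3, the maternally expressed RNA of the imprinted region that holds miR-379, led in both genotypes (3.54 ± 0.42 and 3.08 ± 0.41), followed by Dnm3os, the host RNA of a microRNA cluster (2.56 ± 0.41 and 2.60 ± 0.42), and Snhg18 was lower in KO (−1.43 ± 0.48). In KO against WT AGO2-IP, 4 of 32 tested were called higher and 5 lower, where 21.4% and 9.52% of all genes tested were. The 4 higher ones, H19, Xist, Rmst and Cep83os, passed the filter on low counts only through the KO libraries, as Miat did. The filter itself favoured those calls, and they are not read as a result. Meg3 was counted 941 and 671 times in WT and 436 and 342 times in KO (−0.84 ± 0.25, edgeR, adjusted p = 0.0156), and Rian of the same region 544 and 428 against 227 and 232 times (−0.87 ± 0.24, adjusted p = 0.00845). In total RNA 0 of 31 tested were called. With scaling on genes with total RNA counts, 6 were higher and 1 lower between genotypes in AGO2-IP, against 3570 and 404 of all 13505 genes. After background subtraction 0 of 23 were called, against 611 of all 9829 genes.

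Among genes that averaged 100 counts or more in total RNA, 15 were lncRNAs of 1 exon, and 5 of these were called higher in AGO2-IP than in total RNA in each genotype, with 0 lower in WT and 3 in KO. In order of their difference in WT the first 3 were Neat1, Malat1 and Kcnq1ot1, and the median of the 15 was 0.10 in WT and 0.11 in KO. Of 50 lncRNAs with more than 1 exon, 14 were called higher in each genotype (medians 0.29 and 0.24), with 1 lower in WT and 5 in KO. Of 1566 genes with at least 6 kb of exon, 354 were higher in WT and 341 in KO (0.48 and 0.32), with 11 and 60 lower. Over all 9906 genes of this set, 6.76% were called higher in WT and 6.96% in KO, and 12.8% and 33.9% lower.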
